A study of Mus musculus with 56 samples.

Results

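The 6 genes described here are the cystatins Cst3, Cst8, Cst9, Cst11, Cst12 and Cst13, which were listed by name and found by symbol among the 53379 genes of the count table of the mouse male reproductive tract. Levels were measured by RNA sequencing in 56 libraries from untreated C57BL/6 males aged 3 or 21 months, with 4 libraries for each of 7 regions at each age. They were the testis, the efferent ductules that drain it, the 4 parts of the epididymis (initial segment, then caput, then corpus, then cauda) and the vas deferens. Each age was represented by 4 mice that gave all 7 regions, and the left and right tissues of a mouse were dissected together. Whole tissue was sequenced, so each library holds epithelial, stromal, muscle and immune cells, and in the tract also spermatozoa. The question was where each cystatin was expressed along the tract and whether that differed between young and old mice.

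Cystatins are small, mostly secreted proteins that inhibit papain-like cysteine proteases such as the cathepsins. Cst3 encodes cystatin C, a general extracellular inhibitor made by most tissues. The other members belong to the CRES subgroup, named after Cst8 (cystatin-related epididymal spermatogenic), whose proteins lack residues that classical cystatins use to block these proteases. CRES proteins are known from spermatids and from the epithelium of the proximal epididymis, through which sperm pass after leaving the testis. Cst9 encodes testatin, first described in the developing testis, Cst13 encodes cystatin T, and Cst11 and Cst12 are also called CRES2 and CRES3.

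All 6 genes lie on chromosome 2 within 107.1 kb, from base 148768609 to 148875692 of GRCm38. In order along the chromosome they are Cst11 (chr2:148768609-148771497, minus strand), Cst12 (chr2:148789361-148793546, plus), Cst8 (chr2:148798785-148805595, plus), Cst13 (chr2:148820081-148830410, plus), Cst9 (chr2:148835147-148838738, plus) and Cst3 (chr2:148871722-148875692, minus). The annotation places 8 genes in this span. The 2 that are not members, 8030411F24Rik between Cst11 and Cst12 and 9230104L09Rik between Cst9 and Cst3, carry the RefSeq names Cstdc1 and Cstdc2. No member overlaps another annotated gene, on either strand.

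RefSeq promoters (GRCm38.p6, 250 bases before to 50 bases after the start) were found for 5 of the 6 members, the exception being Cst11. Of these, 4 are printed here because their genes stand for the patterns described below. Cst12 and Cst8 had the most similar pair of profiles among the epididymal members, Cst13 was nearly restricted to the testis, and Cst3 was expressed in every region. Capitals mark matches on either strand to AGGAAG (ETS core), TGTTCT (androgen receptor half-site), TATAAA (a core promoter element), TGACGT (the core of a CRE) or CCAAT (the box of that name).
Cst12 (chr2:148789115-148789414, plus): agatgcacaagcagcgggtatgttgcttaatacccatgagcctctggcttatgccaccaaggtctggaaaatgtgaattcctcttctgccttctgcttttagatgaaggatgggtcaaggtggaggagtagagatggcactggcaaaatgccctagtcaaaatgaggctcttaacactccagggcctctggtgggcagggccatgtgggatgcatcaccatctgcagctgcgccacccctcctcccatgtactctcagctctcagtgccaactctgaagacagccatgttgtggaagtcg
Cst8 (chr2:148798589-148798888, plus): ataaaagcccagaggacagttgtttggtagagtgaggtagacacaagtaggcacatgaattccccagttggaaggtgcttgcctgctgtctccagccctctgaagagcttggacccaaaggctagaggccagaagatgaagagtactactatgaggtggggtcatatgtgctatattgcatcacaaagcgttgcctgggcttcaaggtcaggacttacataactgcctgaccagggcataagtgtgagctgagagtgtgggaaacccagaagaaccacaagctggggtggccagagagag
Cst13 (chr2:148819849-148820148, plus): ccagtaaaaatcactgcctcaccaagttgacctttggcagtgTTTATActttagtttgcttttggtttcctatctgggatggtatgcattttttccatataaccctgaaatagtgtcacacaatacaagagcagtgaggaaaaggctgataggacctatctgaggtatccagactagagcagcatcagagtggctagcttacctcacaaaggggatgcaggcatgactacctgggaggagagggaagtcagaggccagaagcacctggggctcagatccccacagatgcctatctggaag
Cst3 (chr2:148875463-148875762, minus): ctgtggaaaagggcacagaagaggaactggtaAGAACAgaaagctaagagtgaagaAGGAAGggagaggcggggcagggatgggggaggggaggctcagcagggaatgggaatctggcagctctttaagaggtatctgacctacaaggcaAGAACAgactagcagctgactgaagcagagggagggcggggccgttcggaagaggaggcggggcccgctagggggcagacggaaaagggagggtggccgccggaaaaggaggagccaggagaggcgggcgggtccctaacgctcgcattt

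The Cst8 and Cst12 windows held none of the 5 motifs, and the Cst13 window held TATAAA on the minus strand at position -208 from the start. The Cst3 window held AGGAAG at -194 and TGTTCT on the minus strand at -218 and -100, and the Cst9 window held AGGAAG on the minus strand at -215. These letters are common: among 32851 promoters of the same length, 35.4% held AGGAAG, 19% TGTTCT, 13.6% TATAAA, 7.51% TGACGT and 37.4% CCAAT. The Cst3 promoter was the richest in CpG dinucleotides, with 13 and 60.3% GC. Cst12 had 3 CpG, Cst8 had 1, Cst9 had 3 and Cst13 had 0, against a median of 7 over all promoters.

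Depth ran from 11125279 to 20561967 counts per library with a median of 16384049. The lowest totals were those of 21-month efferent ductule libraries 4 and 1, at 11125279 and 11442133. Levels are given as counts-per-million values (CPM) of a library size scaled for RNA composition by the trimmed mean of M values (TMM) over all 56 libraries, and a level per kilobase of exon (RPKM) is used wherever different genes are compared. A count of 3, taken as the floor below which a level is not distinguished from absence, corresponded to 0.138 to 0.478 CPM depending on the library. A long non-coding RNA gene with ribosomal RNA sequence, Gm42418, took 49.7% of the counts in 3-month caput library 2, against 1.27% to 36.0% in the others, and the TMM scaling offsets what such a gene takes from the rest. With plain library sizes the median age difference of all genes would shift on the log2 scale by -0.33 (efferent ductules), 0.20 (caput) and -0.16 (corpus), and by no more than 0.05 in either direction elsewhere. Libraries 2 and 3 of the 21-month efferent ductules had initial segment and caput genes at levels not seen in libraries 1 and 4, and 3-month cauda library 3 stood apart in stromal and macrophage genes. Where a result of the members rests on the former this is said, and most such results are given with and without them.

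Cst8, Cst11 and Cst12 were highest in the initial segment, at far lower levels in the caput, and near the floor from the corpus onwards. In the 3-month initial segment, Cst11 stood at 2486, 2635, 2541 and 2786 CPM in libraries 1 to 4. Cst8 stood at 1524, 1523, 1520 and 1376 CPM in the same libraries, and Cst12 at 559, 559, 347 and 358 CPM. Per kilobase of exon, Cst11 (4247 RPKM) was above Cst8 (1741 RPKM), Cst12 (696 RPKM) and Cst3 (221 RPKM) in this group. Only the non-member neighbour 9230104L09Rik was higher among the genes of the cluster, at 5311 RPKM.

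Between the 3-month initial segment and caput all 6 members were called different and lower in the caput by edgeR's quasi-likelihood test with Benjamini-Hochberg adjustment, where 27.4% of all genes were called. Cst12 was lower by 4.25 on the log2 scale (SE 0.24, adjusted p = 7.18e-15), Cst8 by 3.89 (SE 0.26, adjusted p = 4.38e-13) and Cst11 by 2.56 (SE 0.34, adjusted p = 8.23e-07). Cst11 therefore kept a mean of 487 ± 326 CPM (SD, n = 4) in the 3-month caput, 5.36 times below its initial segment mean. At 21 months all 6 were again called lower (29.7% of all genes), with Cst8 at -3.08 (SE 0.63, adjusted p = 0.000319), Cst11 at -2.80 (SE 0.58, adjusted p = 0.000366) and Cst12 at -2.89 (SE 0.60, adjusted p = 0.000388). DESeq2 called 5 of the 6 at each age, and did not call Cst11 at 3 months (-2.47, adjusted p = 0.116) or Cst12 at 21 months (-2.93, adjusted p = 0.0606). Each age was fitted over all regions together, so an SE here also reflects the spread in regions outside the step. At 21 months that fit held the efferent ductule libraries that stood apart, and this step is given only with them. Cst8, Cst11 and Cst12 were called lower again from caput to corpus at both ages, where 32.7% of all genes were called at 3 months and 32.3% at 21 months. In the corpus and cauda the 8 libraries of each region had 0.226 to 1.25 CPM of Cst8.

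The step from the efferent ductules into the initial segment went the other way. All 6 members were called higher in the initial segment than in the efferent ductules at 3 months (42.5% of all genes). DESeq2 called 5 of the 6, as did edgeR with plain library sizes, and the Cst9 call rests on low counts and groups that overlap (0.188 against 0.674 CPM, adjusted p = 0.0254). At 21 months 5 were called by edgeR (44.6%), the exception being Cst3. The old efferent ductule libraries that stood apart were kept in this count. The 3-month efferent ductules held 0.0532 to 0.738 CPM of Cst8, and Cst11 and Cst12 had no count in 3 of the 4 libraries each.

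**Figure D1:**
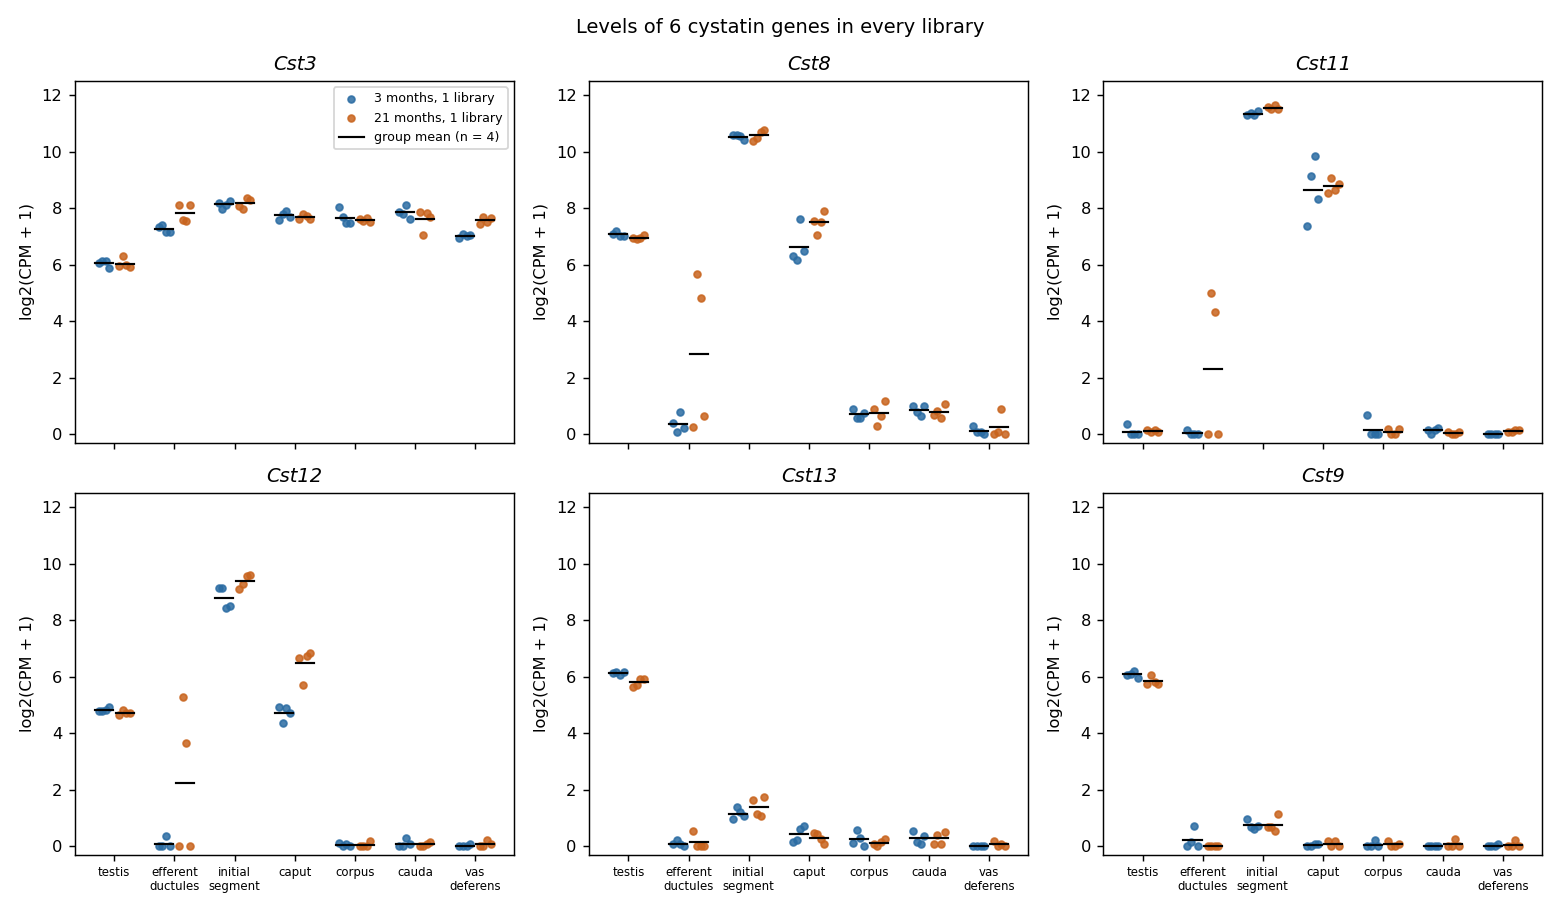
Level of each cystatin in log2(CPM + 1) (y axis) in the 7 regions from testis to vas deferens (x axis), with a point per library, the 2 ages in different colours and a black line at the mean of the 4 values of each group. Cst3 is present everywhere, Cst8 and Cst12 are high in the testis, the initial segment and the caput, Cst11 is an initial segment and caput gene, and Cst9 and Cst13 are high in the testis.

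The testis carried a different set. Per kilobase of exon, Cst8 was the highest member in the 3-month testis (158 RPKM), followed by Cst9 (97.1 RPKM), Cst13 (87.8 RPKM), Cst3 (51.6 RPKM) and Cst12 (42.1 RPKM). Cst11 was not in this set, and no library outside the efferent ductules, initial segment and caput had more than 0.583 CPM of it. Between the testis and the efferent ductules 5 of the 6 members were called at each age, where 75.2% of all genes were called at 3 months and 74.3% at 21 months. At 3 months Cst8, Cst9, Cst12 and Cst13 were lower in the ductules and Cst3 was higher. At 21 months Cst8, Cst9 and Cst13 were lower and Cst3 and Cst11 higher. Without old efferent ductule libraries 2 and 3, Cst11 was not called (adjusted p = 0.124) and Cst12 was called lower (adjusted p = 8.33e-13), which gave the same 5 members as at 3 months.

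Cst8 and Cst12 were thus expressed in both places, and their testis levels were below those of the initial segment. Cst8 had 135 ± 8.91 CPM (SD, n = 4) in the 3-month testis and 1485 ± 73.2 CPM in the 3-month initial segment, a ratio of means of 11. Cst12 had 27.6 ± 1.46 CPM in the testis and 456 ± 119 CPM in the initial segment, a ratio of 16.5. The corresponding log2 differences from the fit were 3.50 for Cst8 and 4.09 for Cst12 at 3 months, and 3.82 and 4.90 at 21 months. In the 3-month caput neither gene was called different from the testis by edgeR, with log2 differences of -0.40 for Cst8 (adjusted p = 0.131) and -0.16 for Cst12 (adjusted p = 0.521). The Cst8 difference was called, as lower in the caput, with DESeq2 size factors (-0.65, adjusted p = 0.00933), by DESeq2 (-0.65, adjusted p = 0.0238) and without the third library of every 3-month region (-0.67, adjusted p = 0.00015). At 21 months Cst12 was higher in the caput than in the testis by 2.01 (adjusted p = 0.00323), a call lost with DESeq2 (1.53) and without the third library of each region (adjusted p = 0.0542). Cst8 differed there by 0.74 (adjusted p = 0.262), which was called without efferent ductule libraries 2 and 3 in the fit (adjusted p = 0.00541).

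Cst9 and Cst13 were testis genes with low counts elsewhere. Cst13 measured 68.4, 70.3, 65.7 and 70.7 CPM in the 3-month testis, and Cst9 measured 66.3, 66.5, 72.4 and 61.6 CPM. In the 3-month initial segment Cst13 had 0.922, 1.63, 1.29 and 1.1 CPM and Cst9 had 0.922, 0.596, 0.528 and 0.649 CPM, above the floor of 3 counts but far below the testis. The spermatid list of 9 genes summed to 39.3 to 120 CPM in the same 3-month initial segment libraries and to 13.8 to 32.7 CPM at 21 months, with 8 of 9 genes called lower with age. Cst13 and Cst9 were not called with age there. Whether sperm RNA accounts for these low levels was not tested.

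**Figure D2:**
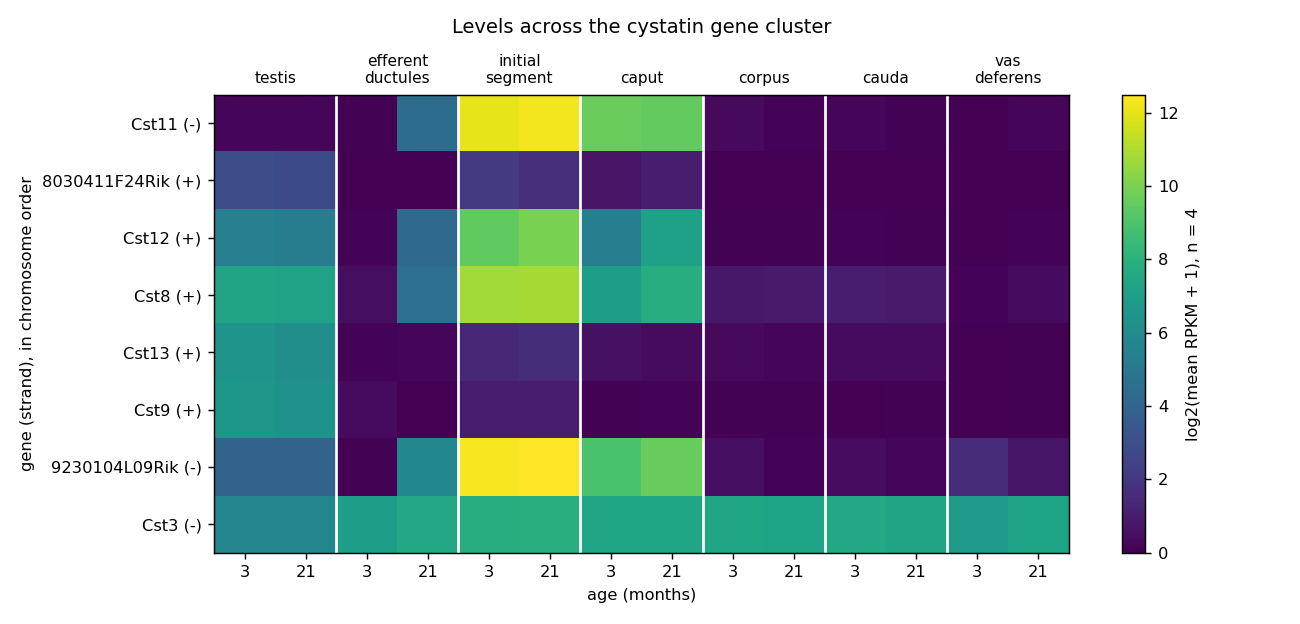
Mean level per kilobase of exon of the 8 genes of the cluster, in chromosomal order, in each region and age, as a colour scale of log2(RPKM + 1). Genes that are high in the initial segment (Cst11, Cst12, Cst8, 9230104L09Rik) are not contiguous: Cst13 and Cst9, high in the testis, lie between Cst8 and 9230104L09Rik.

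The chromosomal order did not sort the genes by region. The testis genes Cst13 and Cst9 are adjacent, and Cst12 and Cst8, which share the testis and initial segment pattern, are adjacent too, while Cst11 and 9230104L09Rik, the strongest initial segment genes, lie near opposite ends of the span. The other non-member, 8030411F24Rik, was low, with 4.14 ± 0.424 CPM in the 3-month testis and 2 ± 0.447 CPM in the 3-month initial segment.

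Profiles were compared over the 14 group means by Pearson's r of log2(CPM + 1), as a description. The points share regions and mice, and a single high region can set r. Cst9 and Cst13 had r = 0.995, Cst8 and Cst12 r = 0.990, Cst11 and Cst12 r = 0.865, and Cst8 and Cst11 r = 0.820. Among the 15508 genes with a level high enough to be compared, the nearest to Cst8 were Cst12, Derl3 (r = 0.982), a component of endoplasmic reticulum degradation, and Khdrbs3 (r = 0.981), an RNA-binding protein. The nearest to Cst12 were Cst8, Col6a4 (r = 0.973) and the amino acid transporter Slc7a5 (r = 0.970). For Cst11 they were 2810459M11Rik (r = 0.999), 9230110F15Rik (r = 0.998) and Ly6g5c (r = 0.998).

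The nearest genes to Cst9 were Myt1l and 4931408C20Rik (r = 0.998 each) and Actrt3 (r = 0.997), an actin-related gene, and those of Cst13 were Gm13817 (r = 0.997), Myt1l and 4931408C20Rik (r = 0.995 each). Cst3 was nearest to Myl12a, a myosin light chain gene (r = 0.980), Cstb, which encodes the intracellular cystatin B (r = 0.980), and Ifitm3, an interferon-induced membrane protein gene (r = 0.972). With ranks (Spearman) in place of Pearson's r, at most 1 of the 3 nearest genes stayed the same for any member.

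Cst3 was the only member expressed well above the floor in all 7 regions. Its order at 3 months, by mean CPM, was initial segment, cauda, caput, corpus, efferent ductules, vas deferens and testis, from 280 ± 24.4 to 65.3 ± 5.36 CPM (SD, n = 4). Neighbours in this order differed from the corpus downwards, with the efferent ductules below the corpus (adjusted p = 0.00368), the vas deferens below the efferent ductules (adjusted p = 0.00152) and the testis below the vas deferens (adjusted p = 1.6e-08). The initial segment and the cauda were not called apart (adjusted p = 0.107), although they were with DESeq2 size factors (adjusted p = 0.0306), filterByExpr (0.035), no filter (0.0318), DESeq2 (0.0207) and without replicate 3 (0.0132). The caput and corpus were not called apart (adjusted p = 0.784). Cauda and caput were called apart (adjusted p = 0.0347), a call that was lost under each other scaling, filter and tool tried and without replicate 1, 2 or 3. With library sizes that are not scaled for composition, the corpus lay below the efferent ductules by 0.13 on the log2 scale at 3 months, the reverse of the order given, and without replicate 1 this step was not called (adjusted p = 0.0624). The step from the efferent ductules to the vas deferens, -0.42 as tested, was not called with plain library sizes (-0.41), filterByExpr (-0.26), no filter (-0.23) or without replicate 1 (-0.22) or 2 (-0.20). At 21 months the order was initial segment, efferent ductules, caput, cauda, corpus, vas deferens and testis, and only the last step, from 190 ± 15.6 to 65.2 ± 8.59 CPM, was called (adjusted p = 2.36e-11). Without efferent ductule libraries 2 and 3 the caput was called below the efferent ductules (-0.44, adjusted p = 0.0215), and the log2 difference of the initial segment over the efferent ductules went from 0.33 to 0.08 (adjusted p = 0.773). With all libraries that difference was called with filterByExpr (adjusted p = 0.0429), and it was called without replicate 1 (0.0432) or 2 (0.0247).

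Further down the tract the counts of called members were as follows. Between corpus and cauda none of the 6 was called at either age, where 23.4% of all genes were called at 3 months and 26.8% at 21 months. At an unadjusted p under 0.05 there was 1 member at 3 months and 0 at 21 months, and DESeq2 called 0 at both ages. Between cauda and vas deferens Cst3, Cst8 and Cst13 were called lower in the vas deferens at 3 months (36.3% of all genes). Of these, Cst8 (0.81 against 0.0878 CPM) and Cst13 (0.23 against 0 CPM) were at or near the floor, with 8, 2, 1 and 5 counts of Cst13 in the cauda libraries. No member was called there at 21 months by edgeR (35.1%), with 1 at an unadjusted p under 0.05 and 1 called by DESeq2.

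With age, the clearest change was in Cst12 in the caput. Its libraries had 29.5, 19.7, 28.6 and 25.3 CPM at 3 months and 98.9, 50.9, 104 and 113 CPM at 21 months. Every old library was above every young one, and old library 2 was the lowest of the old. The rise was 3.51-fold, or 1.81 on the log2 scale (SE 0.21, adjusted p = 0.000629). It was called without any single library (log2 1.68 to 2.01). Cst12 was the only member called among the 5 tested in the caput, where 8.14% of all genes were called. In whole tissue, more cells of a type and more RNA per cell cannot be told apart.

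**Figure D3:**
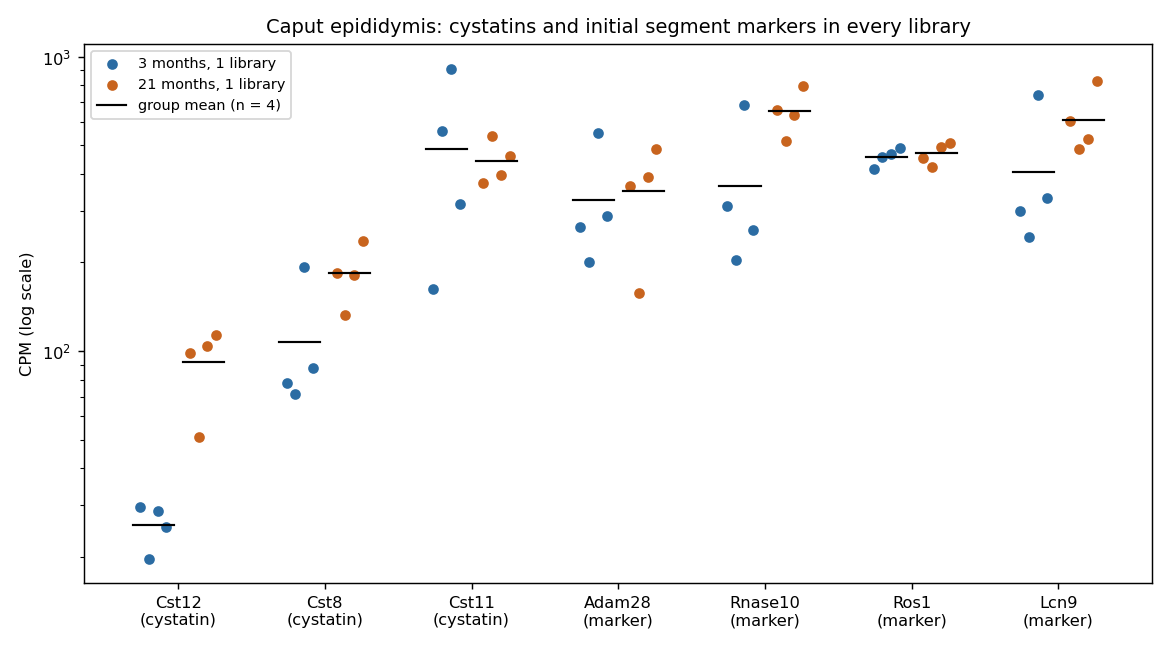
Levels in CPM on a log axis of Cst8, Cst11 and Cst12 and of initial segment marker genes in each caput library at 3 and 21 months, with a point per library. The old libraries lie above all young ones for Cst12, from 50.9 to 113 against 19.7 to 29.5 CPM, while Cst8 and Cst11 overlap between the ages.

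The other caput members overlapped between the ages. Cst8 had 77.8, 71.6, 193 and 87.7 CPM at 3 months and 184, 133, 182 and 236 CPM at 21 months, a log2 difference of 0.77 that was not called (SE 0.27, adjusted p = 0.098). A single young library, number 3, was as high as the old ones. Without it the log2 difference was 1.21 (adjusted p = 0.00401). Cst11 had 163, 557, 911 and 317 CPM at 3 months and 373, 536, 395 and 458 CPM at 21 months, a log2 difference of -0.15 (SE 0.37, adjusted p = 0.847). The young libraries spread more widely than the old. Young libraries 2 and 3 were the highest of their group for Cst11, so leaving them out raises the difference by itself, here to 0.89. That exclusion was not planned in advance.

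The caput borders the initial segment, so the markers of that region are given beside these values. The initial segment list of 5 genes (Adam28, Rnase10, Ros1, Lcn9 and Ggt1) summed to 1651, 1524, 2800 and 1796 CPM in the young caput libraries and to 2372, 1858, 2376 and 2902 CPM in the old. Of the 5, none was called higher and Ggt1 was called lower, and their median log2 difference was 0.09. Ggt1 did not mark the initial segment here, with 390 CPM in the 3-month caput against 39.6 CPM in the 3-month initial segment. Without it, a choice made after the values were seen, the other 4 summed to 1289, 1103, 2450 and 1367 CPM in the young and 2079, 1581, 2043 and 2609 CPM in the old libraries, with a median log2 difference of 0.34 and 0 of 4 called by edgeR. Rnase10 had a log2 difference of 0.83 (adjusted p = 0.0975) and Lcn9 of 0.59 (adjusted p = 0.224). Young library 3, the highest for Cst8 and Cst11, was also the highest young library for both sums. Cells of other kinds moved as well: 3 of 6 T cell genes were called higher (sums of 2.44 to 4.26 CPM against 7.85 to 12.6 CPM), 3 of 5 fibroblast genes lower (855 to 1616 against 507 to 550 CPM) and 4 of 4 smooth muscle genes lower (832 to 1169 against 595 to 661 CPM). Also called were 2 of 7 macrophage genes (higher), 2 of 9 spermatid genes (lower) and 1 of 6 genes of the caput list (lower). In the Sertoli cell list 1 of 7 genes was called higher and 2 lower. The part of all these in the Cst12 result was not tested.

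A ratio between members within a library does not depend on the library's total. Per base, the Cst12 to Cst8 ratio in the caput was 0.493, 0.359, 0.193 and 0.376 at 3 months and 0.699, 0.5, 0.74 and 0.621 at 21 months. In the initial segment it was 0.478, 0.478, 0.298 and 0.339 at 3 months and 0.538, 0.557, 0.596 and 0.573 at 21 months. In both regions every old library was above every young one, with differences in the mean log2 ratio of 0.91 and 0.54. The two-sided exact permutation test gave p = 0.0286 for each (n = 4 per age), the smallest it can give, and 0.114 after adjustment over the 12 ratio tests made, so neither passed. These ratios were chosen after the values were seen. The Cst12 to Cst11 ratio in the caput was 0.17, 0.0333, 0.0294 and 0.075 at 3 months and 0.249, 0.0892, 0.247 and 0.231 at 21 months, which overlapped (exact permutation p = 0.0571, adjusted p = 0.171).

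In the initial segment itself no member was called with age among the 6 tested (6.35% of all genes were called), with 2 at an unadjusted p under 0.05 and 1 called by DESeq2. Cst11 measured 2486 to 2786 CPM in the young and 3070, 2886, 3226 and 2922 CPM in the old libraries. These groups did not overlap, and the log2 difference was 0.21 (SE 0.07, adjusted p = 0.113), which DESeq2 called (0.22, adjusted p = 0.0161). Cst12 measured 559, 559, 347 and 358 CPM against 549, 615, 756 and 768 CPM, a log2 difference of 0.55 (SE 0.16, adjusted p = 0.0535). The Cst12 groups overlapped through young libraries 1 and 2, and without either of these, or without old library 1, the difference was called (adjusted p = 0.0367, 0.0359 and 0.0194). It was also called with plain library sizes (adjusted p = 0.0481) and with no filter (0.000677). Cst8 measured 1329, 1437, 1651 and 1747 CPM in the old libraries, around the young values.

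In the efferent ductules 4 of the 6 members were called higher at 21 months, where 6.99% of all genes were called, and 3 of them rest on 2 libraries. Cst8 had 0.183, 50.1, 27.6 and 0.546 CPM in the old libraries, Cst11 had 0, 30.7, 18.8 and 0 CPM, and Cst12 had 0, 37.4, 11.6 and 0 CPM. Libraries 2 and 3 were high for all 3 genes while libraries 1 and 4 were at the level of the young group. The adjusted p values were 0.0351, 0.0309 and 0.0409, respectively, and all 3 calls were lost without library 2 or 3 alone or without any single young library, although the fitted log2 difference of Cst8 was then still 4.87 to 6.78. Without libraries 2 and 3, only Cst3 was called, and the log2 difference of Cst8 was 0.23 (adjusted p = 0.89).

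**Figure D4:**
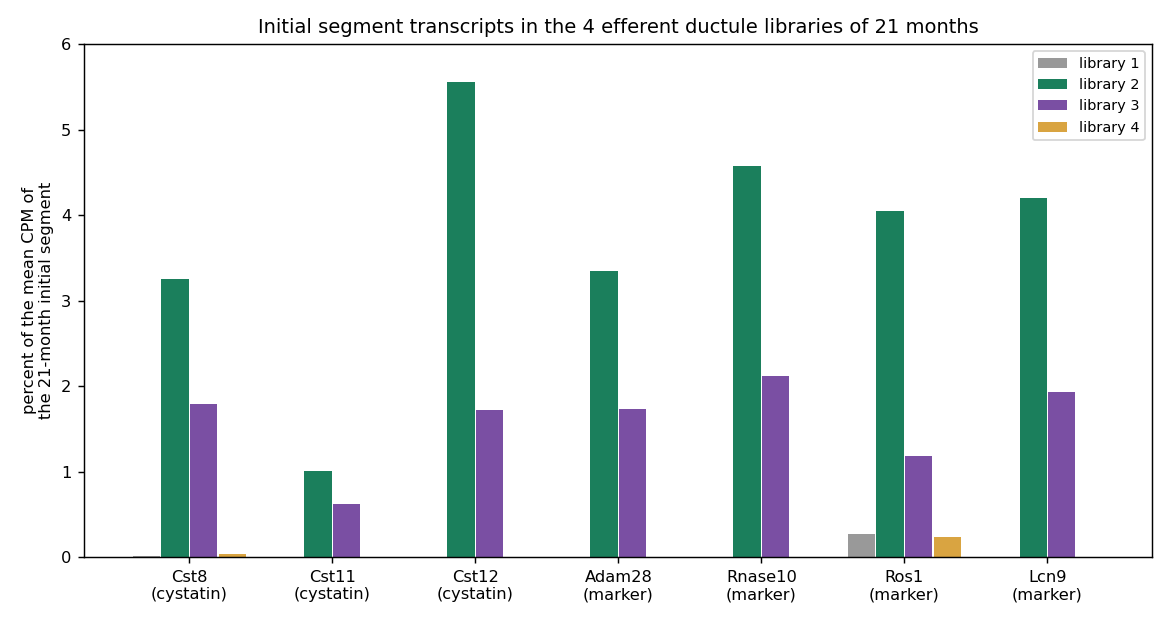
Levels in the 4 efferent ductule libraries of 21-month mice as a percentage of the 21-month initial segment mean, for Cst8, Cst11, Cst12 and initial segment marker genes. Libraries 2 and 3 carry 0.623% to 5.56% of the initial segment level for every gene drawn, and libraries 1 and 4 carry 0% to 0.271%.

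Other initial segment genes were present in the same 2 libraries. Adam28, a membrane metalloprotease gene, stood at 0.0046%, 3.35%, 1.73% and 0% of its 21-month initial segment mean in libraries 1 to 4. Rnase10, a secreted ribonuclease-family gene, stood at 0.00912%, 4.57%, 2.12% and 0.00681%, and Lcn9, a lipocalin gene, at 0.00525%, 4.2%, 1.93% and 0.00349%. Cst8 stood at 0.0119%, 3.25%, 1.79% and 0.0354%, and Cst12 at 0%, 5.56%, 1.72% and 0%. Library 2 was above library 3 for each of these genes, and the Cst11 shares were 1.01% and 0.623%. The sum of 6 caput genes also stood out there, at 633 and 279 CPM against 2.28 and 7.82 CPM. That list does not separate the caput from the initial segment. Its mean sum at 21 months was 16152 CPM in the initial segment and 14936 CPM in the caput. Ggt1, the fifth gene of the initial segment list, was higher in the efferent ductules than in the initial segment in all 4 libraries (920% to 1016%) and does not separate them.

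A similar check applied to the young efferent ductules. Library 3 of that group had 0.646 CPM of Cst9, against 0, 0.106 and 0 CPM in the others, or 0.968% of the testis mean. Cst12 was at 1% and Cst8 at 0.548% of the testis mean in the same library. The spermatid genes summed to 189 CPM there, against 46.4 to 50.8 CPM in the others.

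Cst3 also rose in the efferent ductules. Its libraries had 159, 170, 141 and 142 CPM at 3 months and 274, 191, 188 and 275 CPM at 21 months. All old libraries were above all young ones, with libraries 2 and 3 the lowest of the old. The rise was 1.53-fold, or 0.62 on the log2 scale (SE 0.16, adjusted p = 0.0416). Without libraries 2 and 3 it was 0.90 (adjusted p = 3.09e-05), with only libraries 1 and 4 left of the old. Since libraries 2 and 3 were the lowest of the old, leaving them out raises the difference by itself. Leaving out any single young library, old library 1 or old library 4 gave adjusted p = 0.065 to 0.135. The call also needed the composition scaling. Gm42418 took 22.2%, 4.93%, 14.9% and 18.5% of the counts in old libraries 1 to 4, against 1.27% to 3.29% in the young. Old libraries 1 and 4 also had low totals, 11442133 and 11125279 counts, against 14627147 to 15631528 in the young. Raw counts of Cst3 were 2997 to 3534 in the old libraries and 2780 to 3199 in the young. With Gm42418 removed from the table and TMM scaling kept, the log2 difference was again 0.62 and was called. With plain library sizes, under which the median of all genes was -0.38, the log2 difference was 0.26 (adjusted p = 0.217). Beside it, 4 of 7 macrophage genes were called higher (sums of 247 to 298 CPM at 3 months and 339 to 459 CPM at 21 months), as were 4 of 6 T cell genes and 2 of 4 smooth muscle genes. In the opposite direction, 3 of 5 fibroblast genes were called lower (sums of 2568 to 3059 against 1299 to 1530 CPM), as was 1 of 4 adipocyte genes. Of 6 genes of the efferent ductule epithelium, 1 was called higher and 1 lower. The part of these cells in the Cst3 result was not tested.

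In the vas deferens Cst3 rose as well. It measured 122, 136, 127 and 132 CPM at 3 months and 174, 207, 180 and 200 CPM at 21 months, with no overlap. The rise was 1.47-fold, or 0.55 on the log2 scale (SE 0.08, adjusted p = 0.00131), and 0.52 to 0.59 with any library left out and 0.50 with plain library sizes. It was 1 of the 2 members tested in this region, where 19.9% of all genes were called, so calls were common here. All 6 T cell genes were called higher (sums of 3.76 to 6.62 CPM against 16.6 to 45.6 CPM), 4 of 5 fibroblast genes lower and 3 of 4 smooth muscle genes higher, and their part in the Cst3 result was not tested.

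In the remaining regions Cst3 was not called. Its log2 differences with age were -0.02 (testis), 0.04 (initial segment), -0.07 (caput), -0.11 (corpus) and -0.22 (cauda). The corpus had 4 members tested and the cauda 3, and none was called (2.97% and 0.128% of all genes were). None passed an unadjusted p under 0.05 in either region (17.3% and 10.5% of all genes did), and DESeq2 called 0 in both.

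In the testis 1 of 6 members was called with age, where only 0.563% of all genes were. Cst13 had 68.4, 70.3, 65.7 and 70.7 CPM at 3 months and 49, 50.6, 59.9 and 60 CPM at 21 months, with no overlap between the ages. It fell by 0.34 on the log2 scale (SE 0.07, 1.27-fold, adjusted p = 0.0292). Without young library 1 or 2, or old library 1 or 2, the adjusted p was 0.0551, 0.0885, 0.156 and 0.14. Its neighbour Cst9 had 52.8, 65, 55 and 53 CPM at 21 months, a log2 difference of -0.26 from the young values (SE 0.07, adjusted p = 0.122). Cst8 and Cst12 each had -0.14 (adjusted p = 0.364 and 0.565). None of 9 spermatid genes and none of 7 Sertoli cell genes was called in the testis by edgeR, with median log2 differences of 0.02 and -0.03. At an unadjusted p under 0.05 there were 1 spermatid and 2 Sertoli cell genes, against 10.4% of all genes, and DESeq2 called 0 of either. Other markers did move in the testis: 3 of 5 fibroblast genes were called lower (sums of 106 to 133 against 89.5 to 106 CPM), as was 1 of 4 smooth muscle genes, while 2 of 6 Leydig cell genes were called higher and 1 lower, and 1 of 7 macrophage genes higher. Their part in the Cst13 result was not tested.

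**Figure D5:**
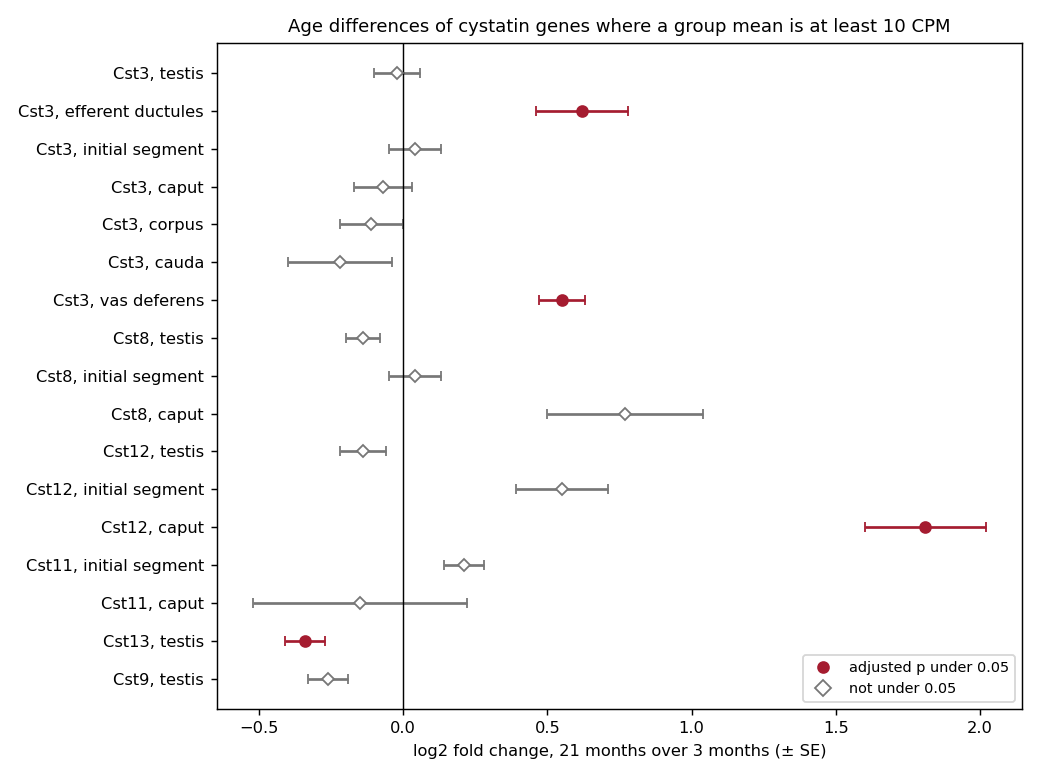
Log2 difference between 21 and 3 months of the members in the regions where they were well expressed, with bars of 1 SE, filled points for adjusted p under 0.05 and open diamonds for the others. Cst12 in the caput lies at 1.81 and Cst3 at 0.55 in the vas deferens and 0.62 in the efferent ductules, and Cst13 lies at -0.34 in the testis. Cst8, Cst11 and Cst12 in the efferent ductules are left out, since their values rest on 2 libraries and a young group at or near 0.

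Whether the age difference itself varied among the regions was tested in a fit of all 56 libraries. It did for 4 of the 6 members, where 20.2% of all genes were called: Cst8 (adjusted p = 9.21e-05), Cst12 (0.000104), Cst11 (0.000121) and Cst3 (0.000554), but not Cst9 (0.181) or Cst13 (0.586). Without efferent ductule libraries 2 and 3 of the old mice, 2 were called, Cst3 (adjusted p = 2.2e-05) and Cst12 (0.000126), while Cst8 had 0.24 and Cst11 0.725. With plain library sizes the Cst3 difference among regions was not called (adjusted p = 0.105). The age difference of Cst3 exceeded the mean of the other 6 regions by 0.60 in the vas deferens (SE 0.13, adjusted p = 0.0022) and by 0.50 in the efferent ductules (SE 0.13, adjusted p = 0.0226). With plain library sizes these were 0.52 (adjusted p = 0.112) and 0.23 (adjusted p = 0.602). The first was also not called without replicate 1, 2 or 4 (adjusted p = 0.0541, 0.0529 and 0.074), nor the second without replicate 1 or 4 (0.154 and 0.235). In the efferent ductules this kind of contrast was also called for Cst8 (5.49, adjusted p = 0.00208), whose old values there rest on libraries 2 and 3. It was called for Cst9 as well (-5.66, adjusted p = 0.0366), on 16 counts in that region. The age difference of Cst12 was larger in the caput than in the initial segment by 1.46 (SE 0.64), which was not called (adjusted p = 0.181). Without the same 2 libraries it was also 1.46 and was called (adjusted p = 0.000924). This last contrast was chosen after the values were seen.

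The 2 non-member genes of the cluster belong to a list of other type 2 cystatins with 6 genes in the table. 9230104L09Rik was highest in the initial segment, with 4785 ± 484 CPM in the 3-month and 5197 ± 283 CPM in the 21-month initial segment (SD, n = 4). Unlike Cst11 it was also present in the testis, at 13.2 ± 2.18 and 13.3 ± 1.9 CPM. It was called higher with age in the efferent ductules, where the old libraries had 0, 145, 57.7 and 0.091 CPM, and without libraries 2 and 3 it had too few counts to be tested. It was called lower in the vas deferens (1.78 ± 0.552 to 0.565 ± 0.194 CPM, adjusted p = 0.00887). Cst7, which encodes the leukocyte cystatin F, was called higher in the initial segment (0.223 ± 0.176 to 1.17 ± 0.182 CPM, adjusted p = 0.00872) and in the vas deferens (adjusted p = 0.0174). In the initial segment 3 of 6 T cell genes were called higher too (sums of 4.48 to 4.66 against 7.48 to 9.31 CPM). So were 2 of 7 macrophage genes (169 to 181 against 208 to 260 CPM), and the part of these cells was not tested. Cstl1 was a testis gene, at 37.4 ± 4.83 CPM at 3 months and 39.1 ± 3 CPM at 21 months. No other call was made in this list, and the number of calls ranged from 1 to 4 without each replicate number in turn.

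Among the cystatins outside type 2, Fetub rose in the testis. It encodes fetuin-B, a type 3 member of the family known as a plasma inhibitor of the oocyte protease ovastacin, and went from 0.867 ± 0.56 to 13.6 ± 1.96 CPM, a rise of 15.4-fold (adjusted p = 1.21e-10). It was also called higher in the vas deferens, by 1.14 on the log2 scale (adjusted p = 0.00303). These were the only calls among the 5 type 3 genes. In the type 1 list of 9 genes in the table, Cstb rose in the vas deferens (14.6 ± 2.52 to 24.6 ± 2.49 CPM, adjusted p = 0.00415) and Csta1 fell in the initial segment by 1.16 on the log2 scale (adjusted p = 0.0342). DESeq2 did not call Csta1 there. Without each replicate number in turn, only 1 call was made in this list.

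The proteases that cystatins act on were listed as 11 papain-like and legumain genes. Over the 7 regions 16 calls with age were made in this list, a number that fell to 9, 9, 5 and 9 without replicates 1, 2, 3 and 4 in turn. In the vas deferens, where 19.9% of all genes were called, 3 were called higher (Ctsw, Ctss and Ctsz) and 4 lower (Ctsk, Ctsh, Ctsb and Ctsl). In the caput (8.14% of all genes) 3 were called higher, among them Ctsw by 1.68 (adjusted p = 0.00708), a cathepsin of cytotoxic lymphocytes. In the initial segment (6.35%) Ctss, a cathepsin of antigen-presenting cells, was called higher by 0.66 (adjusted p = 0.00201) and Ctsz higher, while Ctsh was called lower by 0.60 (adjusted p = 0.00803). Ctss also rose in the efferent ductules (6.99%) by 1.24 (adjusted p = 0.015), together with Ctsz, and Lgmn rose in the testis (0.563%) by 0.36 (adjusted p = 0.0317). In the corpus and cauda edgeR called none of the 11, with 2 and 5 at an unadjusted p under 0.05 (17.3% and 10.5% of all genes) and 1 and 0 called by DESeq2. The 5 in the cauda varied widely among the young libraries (Ctsb 976 ± 1419 CPM, SD, n = 4), of which library 3 stood apart.

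Cst8 protein has been described as an inhibitor of the prohormone convertase PCSK2, so the 7 convertase genes were listed too. The 3 calls with age in this list became 4, 1, 0 and 2 without replicates 1, 2, 3 and 4 in turn. Pcsk5 was called lower in the corpus (2.97% of all genes called) by 0.82 (adjusted p = 0.0125) and in the vas deferens (19.9%) by 0.74 (adjusted p = 0.00759), and Pcsk7 was called higher in the corpus by 0.41 (adjusted p = 0.0319). Pcsk2 itself was highest in the corpus, at means of 8.28 CPM at 3 months and 11.6 CPM at 21 months, where Cst8 was near the floor. In the other 5 regions edgeR called no convertase with age, with 1 or 2 of 5 to 7 tested in each at an unadjusted p under 0.05, against 10.4% to 25.1% of all genes, while DESeq2 called 1 in the cauda and 0 in the others.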

How the data were processed

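RNA was measured in 56 mouse tissue libraries, 4 for each of 7 regions at 3 and 21 months. The authors prepared stranded total RNA libraries, sequenced paired ends, aligned them with HISAT2 to GRCm38 and deposited raw HTSeq counts per Ensembl gene, after trimming with cutadapt per the labels. No tool versions are given in the sources used here, and RNA extraction is named as TRIzol in the labels and RNeasy in the methods. The 4 libraries of a group are taken as separate mice, so p-values measure the spread between these mice, and the 7 regions come from the same mice, although replicate numbers are not said to mark the mouse.

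Symbols and exon lengths came from GENCODE M21 (53274 of 53379 genes matched), and promoters from RefSeq. Totals were 11125279 to 20561967 counts per library with a median of 16384049, and intervals of error cover these libraries only. The main test was edgeR (4.0.16) quasi-likelihood F with TMM scaling in R 4.3.3, on genes with at least 10 counts in the fit, with Benjamini-Hochberg adjustment over all genes tested and a threshold of 0.05. Age was fitted within a region, regions within an age, and the difference of age effects over all 56 libraries. Alternatives were DESeq2 (1.42.0) and its size factors, plain library sizes, other filters, the study's rule of unadjusted p under 0.05 and 1.5-fold, a replicate block, a single fit, leaving out Gm42418, each library and the libraries that stood apart. The study itself used DESeq2. The fits were tested on simulated data. Exact permutation tests used scipy 1.17.1.

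The members, the gene lists and the choice of contrasts were made with earlier results of these data known. Members were named by symbol, list genes where edgeR called them, and the most similar genes were the 3 with the highest Pearson's r among genes with a group mean of at least 10 CPM. Gene lists for the rest of the cystatin family, its target proteases and cell type markers were written by hand. RPKM was computed here from the scaled CPM and the union of a gene's exons.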

Additional observations from a re-analysis of the deposited data

Results flagged for a closer look

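In groups of 4, a library was marked when its gap to the nearest other was a larger share of the group's range than Dixon's critical value, which chance gives in about 1 in 20 groups, and 6 of 49 groups were marked. For Cst3 this was the 21-month testis library at 78 CPM. For Cst8 these were the 3-month initial segment library at 1376 CPM (the lowest), the 3-month caput library at 193 CPM and the 21-month vas deferens library at 0.873 CPM. For Cst9 it was the 3-month efferent ductule library at 0.646 CPM, which also had the most spermatid RNA of its group, and for Cst12 the 3-month testis library at 29.7 CPM. Without the caput library at 193 CPM the age difference of Cst8 there was called by edgeR (adjusted p = 0.00401), as it was with that library kept in but no filter on low counts (adjusted p = 0.0151).

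The age difference varied among the 7 regions for Cst3 (adjusted p = 0.000554), Cst8 (9.21e-05), Cst11 (0.000121) and Cst12 (0.000104) by edgeR. For Cst8 and Cst11 this rested on the 21-month efferent ductule libraries 2 and 3.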

How the results depend on the processing

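Of 1227 values recomputed under alternatives for 93 results, 1014 kept their direction and their side of the threshold (or stayed within 1.5 times, for counts), 80 lost a call, 27 gained one, 34 turned and 72 counts or levels moved; where a cause is not shown by the setting itself, the cause was not tested. The number of members called with age in the testis was 0 by the study's rule and in a single fit of all libraries, and 2 with no filter; in the efferent ductules it was 1 with filterByExpr and 1 without old libraries 2 and 3; in the initial segment it was 1 with plain library sizes or no filter (Cst12) and 1 with DESeq2 (Cst11); in the caput it was 2 by the study's rule, with no filter or without young libraries 2 and 3; in the vas deferens it was 0 by the study's rule. By the study's rule, the share of all genes called with age ran from 2.71% (testis) to 17.8% (vas deferens), with 13.2% in the caput. Between cauda and vas deferens at 21 months 1 member was called by DESeq2 and 1 without the old efferent ductule libraries 2 and 3, and without those 2 libraries 2 members were called for a difference of age effects.

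The log2 age difference of Cst13 in the testis was -0.34 and not called in a single fit. In the efferent ductules it was 0.26 for Cst3 with plain library sizes, 0.23 for Cst8 without libraries 2 and 3 and 7.42 for Cst12 with DESeq2, none of them called. Cst8 in the caput was called at 0.77 with no filter and at 1.16 without young libraries 2 and 3. With plain library sizes the excess of the Cst3 age difference over other regions was 0.23 in the efferent ductules and 0.52 in the vas deferens, neither called, and the excess of Cst12 in the caput over the initial segment was 1.46 and called without the old efferent ductule libraries 2 and 3.

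Directions turned, among differences of which none but Cst3 in corpus over efferent ductules had been called, as follows: with all libraries in a single fit, Cst3 and Cst8 in the initial segment (-0.10 each) and Cst3 in cauda over caput at 21 months (0.07); with plain library sizes, Cst3 in the caput (0.16), Cst11 in the caput (0.11), Cst3 in corpus over efferent ductules at 3 months (-0.13) and in vas deferens over corpus at 21 months (0.49); without young caput libraries 2 and 3, Cst3 (0.05) and Cst11 (0.89) in the caput; and Cst3 in corpus over caput at 3 months (-0.02, -0.07, -0.04, -0.08 and -0.02 with DESeq2 size factors, plain sizes, filterByExpr, no filter and DESeq2).

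Calls over the 7 regions numbered 7 for other type 2 cystatins and 4 for type 3 by the study's rule, 1 for type 1 and 9 for proteases in a single fit, and 5 for convertases with no filter, with DESeq2 or without the old efferent ductule libraries 2 and 3.

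With each library or replicate number left out in turn, members called with age ranged from 0 to 1 (testis), 0 to 3 (efferent ductules), 0 to 1 (initial segment) and 1 to 2 (caput), and from 0 to 1 between cauda and vas deferens at 21 months. Log2 age differences in the testis ranged from -0.41 to -0.28 for Cst13 and -0.11 to 0.03 for Cst3; for efferent ductules from 0.48 to 0.76 for Cst3, 4.53 to 6.78 for Cst8, 7.31 to 11.19 for Cst11 and 5.24 to 10.70 for Cst12; in the initial segment from -0.03 to 0.11 for Cst3 and -0.05 to 0.13 for Cst8; in the caput from 0.53 to 1.21 for Cst8 and -0.44 to 0.39 for Cst11; and in the corpus from -0.20 to 0.02 for Cst3. For Cst3 they ranged from -0.22 to 0.12 (corpus over caput, 3 months), -0.14 to 0.13 (cauda over caput, 21 months) and -0.03 to 0.17 (cauda over corpus, 21 months), and for Cst12 in caput over testis at 3 months from -0.21 to 0.02. The excess of Cst3 ranged from 0.46 to 0.69 in the efferent ductules and 0.46 to 0.57 in the vas deferens. List calls ranged from 1 to 4 (other type 2), 1 to 1 (type 1), 5 to 9 (proteases) and 0 to 4 (convertases).

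Libraries with the same replicate number shared little: their deviations from group means correlated on average at 0.036 between regions at 3 months. The mean was 0.004 at 21 months and 0.029 between the ages of a region. Such values cannot tell whether equal numbers mark the same mouse, since a weak effect of the mouse would give them too. Apart from the replicate block, fits over several regions treated the libraries as independent. With the replicate block, 2 members were called in the caput, Cst8 was called there at 0.87, Cst11 there turned to 0.12, Cst3 in the efferent ductules was 0.59 and not called, and type 1 had 1 call.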
